A study of Mus musculus with 12 samples.

Results

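Livers of L-iAMPK mice on doxycycline were compared with livers of iAMPK mice on doxycycline, 3 libraries against 3 of the 12 in the series, chosen by their labels. Both groups were C57Bl/6J mice fed for 8 weeks a high-fat diet with 45% of its calories from fat, with doxycycline added. Both carried ColA-AMPKa1(312), a doxycycline-inducible transgene for a part of the α1 catalytic subunit of AMPK, of 312 residues by its name. Both also carried R26-rtTA, the transactivator that responds to the drug. Transgene and transactivator were each on both alleles as the genotype is written. The L-iAMPK mice also carried Albumin-Cre, a recombinase driven by a promoter active in hepatocytes, and only their group on doxycycline is labelled as having active AMPK. Since the drug was given on both sides, this comparison sets livers with and without the induced kinase side by side, with exposure to doxycycline in common. The Cre and the induced transgene cannot be told apart in these 6 libraries alone, so the same genotypes on the diet without doxycycline, another 3 against 3, are given beside many of the results. Sex and age were not given in the sources used here, and the labels number the livers without saying that each came from a separate animal, so that p-values measure the spread between these libraries.

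AMPK is a kinase complex of a catalytic α, a scaffolding β and a nucleotide-binding γ subunit, activated when cellular energy runs low. In liver it is known for phosphorylating acetyl-CoA carboxylase, which slows the synthesis of fatty acids, and for favouring the oxidation of fat. These acts are on proteins; the data here are levels of polyadenylated RNA in whole liver, in which fewer cells of a type and less RNA per cell cannot be told apart.

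Reads in genes ranged from 13569437 to 20696899 in the 6 libraries, lowest in iAMPK replicate 1. On the first principal component, which held 54.6% of the variance, the groups separated. On the second, with 20.8%, iAMPK replicate 1 stood apart at 29.67, against -15.69 to 6.22 in the other 5 libraries. Its correlation across genes with L-iAMPK replicate 3, 0.975, was close to that with iAMPK replicate 3 of its own group, 0.977. Among the iAMPK libraries, replicate 1 had the lowest and replicate 3 the highest levels of many inflammatory and matrix genes, and results that move when either is left out are given both ways. The liver identity of the samples was plain: the summed level of the 23 hepatocyte markers was 70680 to 80110 FPKM in iAMPK and 76070 to 85610 FPKM in L-iAMPK livers (FPKM, fragments scaled to transcript length and to library size). The 2 measured markers of exocrine pancreas and the 1 of muscle did not pass the test. The summed level of 6 muscle genes was 2.65 FPKM in iAMPK replicate 2 and at most 0.738 FPKM in the other 5 libraries. Acta1, skeletal muscle actin, was at 0.627 FPKM in iAMPK replicate 2 and listed at 0 in all others.

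Of 12614 genes tested, 1882, or 14.9%, differed between the genotypes on doxycycline at an adjusted p under 0.05 (limma on log2(FPKM + 0.5), Benjamini-Hochberg). Of them 581, or 4.61% of the genes tested, were higher in L-iAMPK livers, and 1301, or 10.3%, were lower. Most differences were small: 939 of the called genes differed by less than 0.5 on the log2 scale, while 67 were higher and 230 lower by at least 1. The share that rose against the share that fell depended on the scaling, since the median gene stood at -0.08 on the log2 scale with FPKM, at 0.01 after median-ratio scaling and at 0.03 after quantile normalization. With that scaling 1129 genes (8.95%) were higher and 870 (6.9%) lower. After quantile normalization 1232 (9.77%) were higher and 880 (6.98%) lower. The quasi-likelihood test of edgeR on recovered reads called 7.86% of 13773 genes, 531 (3.86%) higher and 552 (4.01%) lower. Leaving out iAMPK replicate 1 gave 483 higher and 1959 lower, iAMPK replicate 2 298 and 610, and iAMPK replicate 3 396 and 679. Without L-iAMPK replicate 1 there were 289 and 726, without replicate 2 416 and 759, and without replicate 3 357 and 833. The authors' deposited table for this pair of groups called 1555 genes at an adjusted p under 0.05, of which 1068 were also called here, all 1068 with the same sign.

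Prkaa1, the gene of the α1 subunit and of the transgene (chromosome 15, positions 5143861 to 5181899 of mm10), checked the labels. It stood at 2.64, 3.06 and 2.84 FPKM in the iAMPK livers on doxycycline and at 1265, 947 and 1003 FPKM in the L-iAMPK livers, a difference of 8.31 ± 0.14 on the log2 scale (SE). Transcripts of the transgene and of the native gene are not separated in the table. Prkaa2, the α2 catalytic subunit, rose from 7.44, 7.79 and 7.92 to 12.5, 10.7 and 12.6 FPKM, and Camkk2, a kinase that phosphorylates AMPK, from 1.66, 1.77 and 2.15 to 3.10, 3.33 and 2.58 FPKM. Both differences, 0.59 ± 0.11 and 0.57 ± 0.12 on the log2 scale, exceeded the spread between libraries (adjusted p = 0.00573 and 0.00884, limma). The β subunits Prkab1 and Prkab2, the γ subunit Prkag1, and Stk11, Strada and Cab39, the parts of the LKB1 complex that activates AMPK, did not pass the test. Prkag2, a γ subunit, was called lower by 0.26, and lost the call without any single library other than iAMPK replicate 1 (adjusted p = 0.0559 to 0.111).

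The 14 largest rises included Prkaa1 itself, Muc13, Csad and Cux2. Muc13, an epithelial transmembrane mucin (chromosome 16, 33794037 to 33819927), was listed at 0.021, 0 and 0 FPKM in iAMPK livers and at 24.2, 30.8 and 20.8 FPKM in L-iAMPK livers. The groups were far apart, by 5.65 ± 0.14 on the log2(FPKM + 0.5) scale, where the added 0.5 makes the change of so low a gene look smaller (adjusted p = 6e-10). Csad, which catalyses the decarboxylation step of taurine synthesis (chromosome 15, 102176998 to 102189043), stood at 32.2, 40.4 and 45.6 FPKM against 269, 199.5 and 251 FPKM. The rise of Csad was 2.59 ± 0.23 on the log2 scale (adjusted p = 0.000124), and none of the other 9 measured genes of taurine and sulfur amino acid metabolism was called. Cux2, a transcription factor with female-biased expression in mouse liver, rose from 0.038, 0.109 and 0.095 to 4.41, 5.81 and 2.52 FPKM.

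Cyp2a4, a cytochrome P450 known for female-biased expression in mouse liver, was very uneven among the L-iAMPK livers, at 30.6, 393 and 189 FPKM against 0.144, 1.94 and 1.13 FPKM in iAMPK livers. The difference was 6.60 ± 0.91 on the log2 scale (adjusted p = 0.0019, limma). Its groups did not overlap, as the rule for the largest changes required. Over all genes tested, 4398, or 34.9%, had groups of 3 that did not overlap. Thrsp, a regulator of fatty acid synthesis, rose from 282, 299 and 198.5 FPKM to 1470.1, 1039.7 and 1046 FPKM, and Cyp2c29, another cytochrome P450, from 330.04, 265 and 245 FPKM to 953, 1366 and 1139 FPKM. Gstm5, a glutathione transferase, rose from 7.58, 8.73 and 11.02 FPKM to 46.8, 57.8 and 43.1 FPKM, and Slc34a2, a sodium-phosphate cotransporter, from at most 0.412 FPKM to at least 1.38 FPKM. Cabp2, a calcium-binding protein, and the pseudogene Cyp2c53-ps were below 0.3 FPKM in every iAMPK liver and above 1.1 FPKM in every L-iAMPK liver.

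Pnpla5, Pnpla3 and Cml5 completed the largest rises, with weaker support. Pnpla5, a lipase of the patatin family, was at 0, 0.087 and 0.154 FPKM against 1.503, 4.16 and 1.01 FPKM, and its adjusted p was 0.0531 with edgeR. Pnpla3, a lipid droplet protein of the same family, was at 0.186, 0.701 and 0.997 FPKM against 2.85, 15.4 and 3.62 FPKM. Its call was lost (adjusted p = 0.0593 to 0.107) without any single library other than L-iAMPK replicate 1. The call of Cml5 (camello-like 5) was lost without any 1 of the 6 libraries, at adjusted p of 0.054 to 0.107.

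**Figure D1:**
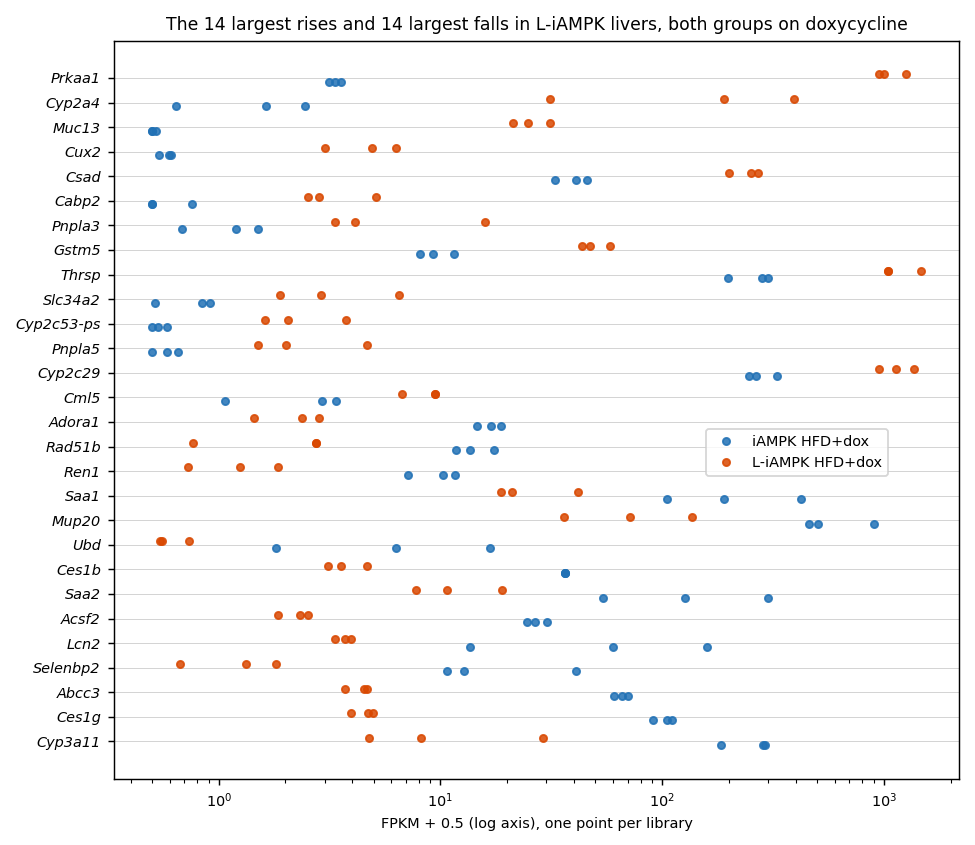
FPKM plus 0.5 on a log axis for the 14 largest rises (top) and 14 largest falls (bottom) in the comparison on doxycycline, 1 point per library, iAMPK in blue and L-iAMPK in orange. The 3 points of the groups do not overlap for any of the 28 genes, as the rule that chose them required; within a group, Cyp2a4, Lcn2 and Cyp3a11 spread widely.

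Ces1g, Cyp3a11, Abcc3 and Ces1b, enzymes and a transporter of hepatocytes, were among the 14 largest falls. Ces1g, a carboxylesterase that hydrolyses lipid esters (chromosome 8, 93302369 to 93337209), stood at 90.6, 104 and 110.2 FPKM in iAMPK livers and at 4.47, 3.45 and 4.20 FPKM in L-iAMPK livers. That difference, -4.50 ± 0.17 on the log2 scale, was large against a tight spread in both groups (adjusted p = 6.94e-08). Cyp3a11, the main mouse CYP3A enzyme of drug metabolism, fell from 183, 286 and 289.5 FPKM to 4.29, 28.7 and 7.71 FPKM. Without doxycycline it was at 148, 348 and 226 FPKM in iAMPK against 89.0, 107 and 20.9 FPKM in L-iAMPK livers. That difference of -1.945 (log2) did not pass (adjusted p = 0.134, limma), and neither did the interaction (adjusted p = 0.112). Abcc3, an exporter of bile acids and conjugates in the basolateral membrane, fell from 59.98, 69.4 and 65.3 FPKM to 3.19, 4.15 and 4.04 FPKM. It lies on chromosome 11 (94343295 to 94392976), as does Acsf2 below. Ces1b fell from 36.0, 35.8 and 36.0 FPKM to 3.05, 2.61 and 4.16 FPKM. Adora1, the adenosine A1 receptor, fell from 16.3, 18.3 and 14.2 FPKM to 0.942, 2.33 and 1.88 FPKM. Ren1, which encodes renin, was at 6.63 to 11.2 FPKM against 0.229 to 1.35 FPKM, and Rad51b, of homologous recombination, at 11.3 to 17.0 FPKM against 0.264 to 2.25 FPKM. Selenbp2, a selenium-binding protein, was at 40.5, 10.2 and 12.3 FPKM against 1.32, 0.168 and 0.833 FPKM, and its call was lost without any 1 of the 6 libraries (adjusted p = 0.0725 to 0.108).

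Acsf2 (chromosome 11, 94557102 to 94601786), whose product activates fatty acids by joining them to coenzyme A, fell from 24.1, 29.8 and 26.2 FPKM to 1.82, 1.35 and 2.02 FPKM, by 3.62 ± 0.13 on the log2 scale (adjusted p = 4.81e-08). It starts within 500 kb of Col1a1. In that window 8 of 15 tested genes were called, all 8 lower in L-iAMPK livers, where 10.3% of all genes tested were lower. Among them were Pdk2, a pyruvate dehydrogenase kinase, from 54.6, 51.3 and 47.7 FPKM to 21.5, 14.9 and 18.2 FPKM, and the endoplasmic reticulum protein gene Lrrc59, from 29.3, 36.3 and 35.2 FPKM to 19.2, 16.1 and 16.7 FPKM. Without doxycycline these 3 genes did not pass the test (adjusted p = 0.0815 for Acsf2, 0.622 for Pdk2 and 0.879 for Lrrc59). Of the 8, Mrpl27 and Xylt2 lost their calls in several alternatives and the other 6 kept them in all 17. A cause that acts on position along the chromosome was not tested.

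Lcn2, Saa1, Saa2 and Ubd, genes raised in inflammation, were also among the 14 largest falls. Lcn2, an iron-siderophore-binding protein of the acute phase, was at 13.0, 59.8 and 158.5 FPKM in iAMPK livers and at 2.83, 3.44 and 3.20 FPKM in L-iAMPK livers. The iAMPK livers differed widely from each other and the L-iAMPK livers hardly (-3.79 ± 0.76 on the log2 scale, adjusted p = 0.0104, limma). That its groups did not overlap was required by the rule that chose it. Saa1 and Saa2, the serum amyloid A genes, showed the same order of the 3 iAMPK livers, Saa2 at 53.6, 126 and 301 FPKM against 7.27, 10.2 and 18.4 FPKM. Ubd, an interferon-inducible ubiquitin-like modifier, was at 1.32, 5.78 and 16.2 FPKM against 0.238, 0.043 and 0.054 FPKM. Its adjusted p was 0.0504 without iAMPK replicate 2.

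The largest number of falls in any list was in the interferon response, the set of genes switched on when cells sense interferon. The upstream stretch of Cxcl10 and of Irf9, members whose levels are given next, is shown because members of the list moved together. Both are from RefSeq on GRCm38.p6, 250 bases before the start of the gene to 50 after it. Capitals mark matches to the motifs searched on both strands, which are the interferon element core GAAANNGAA, the antioxidant element core TGACNNNGC, the NF-Y box CCAAT, the STAT site TTCNNNGAA, the E-box CACGTG and the sterol element TCACNCCAC. Cxcl10 lies at chr5:92348840-92349139 on the minus strand and Irf9 at chr14:55604329-55604628 on the plus strand.
Cxcl10: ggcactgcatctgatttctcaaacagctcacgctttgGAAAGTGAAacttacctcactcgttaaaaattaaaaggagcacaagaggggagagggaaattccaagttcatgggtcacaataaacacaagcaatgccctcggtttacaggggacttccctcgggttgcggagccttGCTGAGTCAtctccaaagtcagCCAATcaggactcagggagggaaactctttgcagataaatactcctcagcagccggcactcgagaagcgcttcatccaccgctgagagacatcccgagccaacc
Irf9: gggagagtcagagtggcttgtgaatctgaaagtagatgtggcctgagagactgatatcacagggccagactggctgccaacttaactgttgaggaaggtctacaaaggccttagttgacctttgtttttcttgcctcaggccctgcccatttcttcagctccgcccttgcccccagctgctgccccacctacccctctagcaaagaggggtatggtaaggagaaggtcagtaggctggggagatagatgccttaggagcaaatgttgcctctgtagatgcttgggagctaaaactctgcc

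The matches in Cxcl10 are GAAAGTGAA at 213 bases before the start, GCTGAGTCA at 76 and CCAAT at 54. The window of Irf9 holds no match. Those of Irf1 and Ifi47, which the same rule picked and which are not printed, hold 0 matches each. The window of Ifi47 is set 10430 bases from the start of the transcript that was measured, so its letters do not describe the stretch before that start. For Irf1 this distance is 0. Of the 22 interferon members with a promoter in the table, 12 held the interferon element core, which was added to the search after the results were seen, against 8.13% of 17322 promoters. Among the 15 called members 8 held it, a share near that of all 22. The list was made of genes that answer interferon, whatever these data show, and a link between the motif and the falls was not tested. The STAT site was in 5 of 22 against 8.16%, the NF-Y box in 9 against 38.7%, the antioxidant core in 6 against 13.2%, and the E-box and the sterol element in 0 of 22 against 8.07% and 1.22%. A match is a description of the letters and shows no binding.

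Of the 26 interferon genes, 17 fell and none rose, where 10.3% of all genes tested fell, and all 26 differences were negative, with a median of -0.97 against -0.08 over all genes (log2). Cxcl10, a chemokine that draws T cells, was at 3.26, 6.70 and 13.7 FPKM in iAMPK livers and at 1.22, 1.62 and 1.88 FPKM in L-iAMPK livers (-1.82 ± 0.38 on the log2 scale, adjusted p = 0.0117). Irf9, the DNA-binding part of the ISGF3 complex, fell from 17.5, 19.5 and 19.5 FPKM to 10.6, 12.5 and 12.3 FPKM. Irf1, a transcription factor induced by interferon, fell from 20.6, 17.9 and 27.1 FPKM to 8.14, 12.2 and 11.3 FPKM, and Ifi47, an interferon-inducible GTPase, from 11.2, 11.8 and 18.2 FPKM to 4.12, 6.68 and 6.21 FPKM. In each of these genes every L-iAMPK liver was below every iAMPK liver. Groups did not overlap, in either direction, in 34.9% of all genes tested. Irf1, Irf9 and Ifi47 kept their calls in all 17 alternatives.

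The count of 17 depended on single libraries. It was 24 without iAMPK replicate 1 and 4 without iAMPK replicate 2 or replicate 3. Without L-iAMPK replicates 1, 2 and 3 it was 4, 10 and 6. Fitting the 6 libraries alone gave 6, median-ratio scaling 14, and edgeR 5, and no member rose in any of these. Without doxycycline the median over the list was -0.002, with 1 member called higher and 0 lower, and the interaction, which tests whether the genotype difference was the same with and without doxycycline, called 3 members, all 3 with the lower value on doxycycline. That 3 was 17 without iAMPK HFD+dox replicate 1 and 6 without iAMPK HFD replicate 3. It was 1 without L-iAMPK HFD replicate 1 and 0 without iAMPK HFD replicate 1.

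The acute phase list, genes mostly of secreted proteins that hepatocytes raise or lower in inflammation, split by member. Of 23 genes, 7 fell (Saa1, Saa2, Lcn2, Il1rn, Steap4, Serpina3n and Crp) and 5 rose, where 10.3% of all genes tested fell and 4.61% rose. The 5 that rose were the 3 fibrinogen chains Fga, Fgb and Fgg and the metallothioneins Mt1 and Mt2, which bind zinc and copper. Fgb was at 2578, 1655 and 1899.6 FPKM against 3851, 4479 and 4222 FPKM (1.06 ± 0.14 on the log2 scale, adjusted p = 0.00121), and Fga and Fgg rose by 0.91 and 0.87. Mt2 stood at 76.0, 38.3 and 69.7 FPKM against 189, 230.5 and 207 FPKM. Il1rn, the interleukin-1 receptor antagonist, fell from 3.77, 5.58 and 8.83 FPKM to 0.775, 1.36 and 1.08 FPKM. The 5 rises held with median-ratio scaling, quantile normalization and edgeR. The 7 falls became 6, 9 and 5 in that order, and Crp and Serpina3n lost their calls with edgeR (adjusted p = 0.0808 and 0.099).

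**Figure D2:**
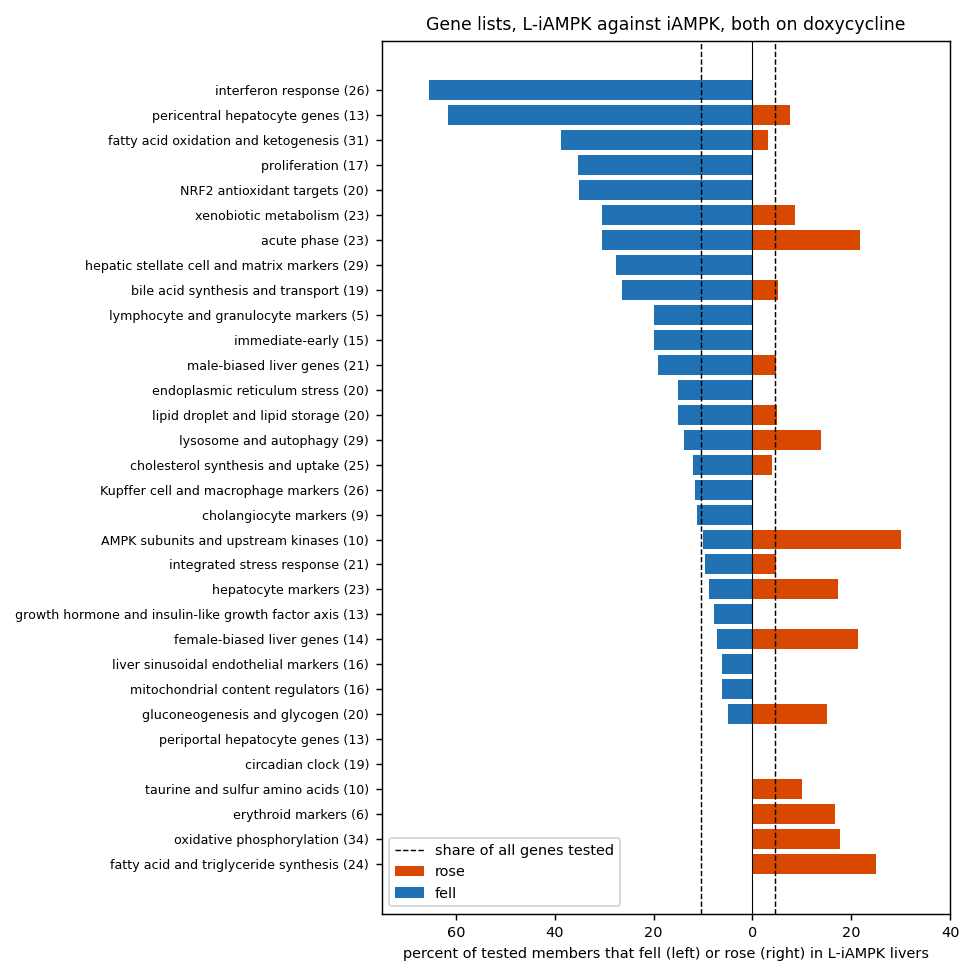
Percent of the tested members of each gene list that rose (orange, right) or fell (blue, left) in L-iAMPK against iAMPK livers on doxycycline, with the number tested in parentheses; dashed lines mark the 4.61% and 10.3% of all genes tested. Interferon response and pericentral genes have the largest shares that fell, 17 of 26 and 8 of 13, and no periportal or circadian gene passed.

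Markers of non-parenchymal cells were lower in L-iAMPK livers where they passed the test. All 29 tested markers of stellate cells and matrix had negative differences, with a median of -0.71 (log2). Of the 29 markers 8 fell, where 10.3% of all genes tested fell. Their summed level was 239, 402 and 551 FPKM in the iAMPK livers and 203, 214 and 232 FPKM in the L-iAMPK livers, so that iAMPK replicate 1 was near the L-iAMPK range. Lrat, which makes retinyl esters in stellate cells, fell from 3.83, 7.17 and 6.63 FPKM to 2.34, 3.05 and 1.85 FPKM (-1.11 ± 0.23 on the log2 scale, adjusted p = 0.00982). The count of 8 was 23 without iAMPK replicate 1, 1 without iAMPK replicate 2 and 3 without iAMPK replicate 3. Without L-iAMPK replicates 1, 2 and 3 it was 3, 2 and 3. The interaction called 16 of the 29, all lower on doxycycline, 11 with either other scaling and 6 with edgeR. It called 26 without iAMPK HFD+dox replicate 1 and 3 to 6 without any other library of this diet. Of the libraries without doxycycline, it called 4 and 5 when iAMPK HFD replicate 1 or 3 was left out, and 3, 3 and 22 for L-iAMPK HFD replicates 1, 2 and 3.

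Of 26 Kupffer cell and macrophage markers, 3 fell (Ccl5, Mmp12 and Clec7a), a share near that of all genes, and their summed levels overlapped, at 355 to 728 FPKM in iAMPK and 299.9 to 542 FPKM in L-iAMPK livers. Ccl5, a chemokine of T cells and macrophages, fell from 2.46, 2.22 and 3.85 FPKM to 0.674, 0.999 and 0.571 FPKM. The 3 became 13 without iAMPK replicate 1 and 1 without iAMPK replicate 2 or 3 or L-iAMPK replicate 1. They became 2 without L-iAMPK replicate 2 or 3. Of 16 sinusoidal endothelial markers 1 fell, a share below the 10.3% of all genes tested. The count was 8 without iAMPK replicate 1 and 2 without L-iAMPK replicate 3, and it was 0 without any other single library, with quantile normalization and with edgeR. Of 9 cholangiocyte and 5 lymphocyte and granulocyte markers 1 fell in each list, near the threshold. The part of these cells in the interferon and acute phase results was not tested.

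Zonation genes mark the place of a hepatocyte on the axis from portal to central vein. Of 13 pericentral genes, 8 fell, among them Oat, Rhbg, Cyp1a2, Slc1a2, Glul, Lgr5 and Aldh3a2, where 10.3% of all genes fell, and 1, Ces1d, rose, while none of 13 periportal genes passed the test (limma: 1 rose and 4 fell at an unadjusted p under 0.05; edgeR: 0 called). Oat, ornithine aminotransferase, fell from 489, 521 and 464 FPKM to 108.5, 117 and 199 FPKM (-1.85 ± 0.24 on the log2 scale, adjusted p = 0.00103). Rhbg, an ammonia transporter, fell from 5.31, 8.15 and 6.75 FPKM to 1.38, 2.30 and 2.53 FPKM. Oat and Rhbg kept their calls in all 17 alternatives. The median over the pericentral list was -0.50 on doxycycline and -0.33 without it (log2), where 1 member was called higher and 1 lower. The interaction called 4 of the 13, 1 higher and 3 lower on doxycycline. The periportal median was -0.19 on doxycycline and -0.38 without it, where 2 members were called lower and 0 higher.

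Glul, glutamine synthetase, the classical gene of the outermost pericentral hepatocytes, was at 248, 421 and 422 FPKM in iAMPK and at 215, 185 and 237 FPKM in L-iAMPK livers. Its call was lost without any single library other than iAMPK replicate 1 (adjusted p = 0.0603 to 0.135). The list's count of 8 was 6 without iAMPK replicate 1, 3 without replicate 2 and 4 without replicate 3. Without L-iAMPK replicates 1, 2 and 3 it was 3, 2 and 6. It was 6 with median-ratio scaling and with quantile normalization, 5 with the 6 libraries alone and 3 with edgeR. Slc1a2, a glutamate transporter, differed by -0.76 on the log2 scale in limma and by -0.10 in edgeR (adjusted p = 0.786). Ces1d, a carboxylesterase, rose from 190.0, 206 and 162 FPKM to 339, 349.6 and 329.6 FPKM, and was higher in L-iAMPK livers without doxycycline as well. That second call was lost without L-iAMPK HFD replicate 1 or 2 (adjusted p = 0.0565 and 0.0532).

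**Figure D3:**
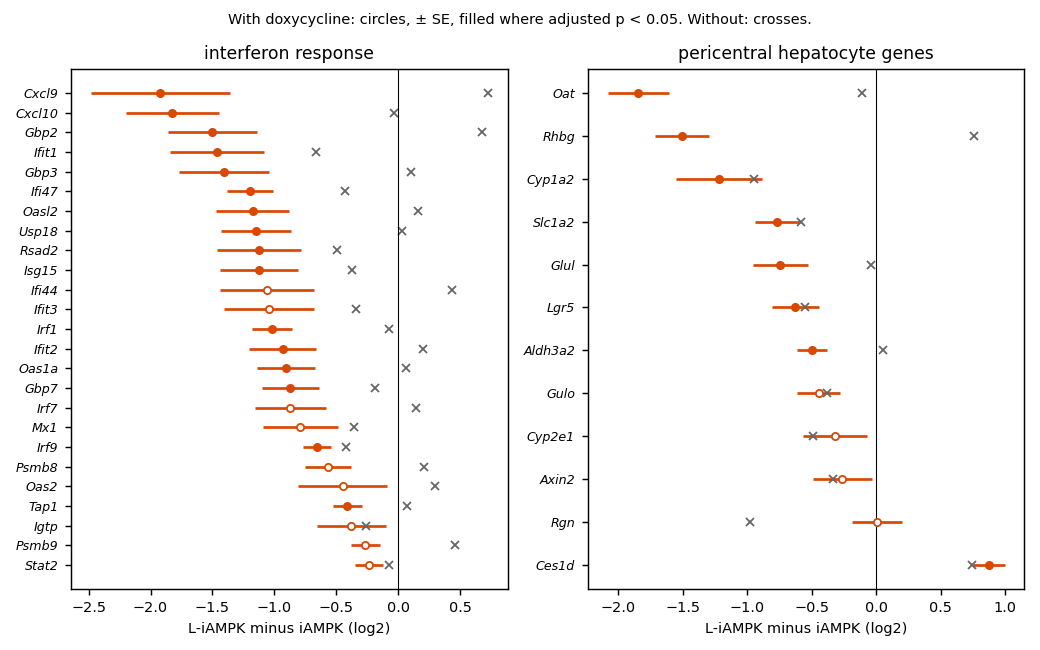
Difference between L-iAMPK and iAMPK livers (log2) for tested genes of the interferon list (left) and the pericentral list (right), leaving out 1 member of each. Circles with SE are on doxycycline, filled where the adjusted p was under 0.05; crosses are the same genes without doxycycline. All interferon circles lie left of 0.

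The drug-matched livers also differed in genes that make fat. Of 24 genes of fatty acid and triglyceride synthesis, 6 rose and none fell, where 4.61% of all genes rose. They were Thrsp, Dgat2, Pklr, Mlxipl, Pnpla3 and Agpat2. The median difference over the list was 0.35 on doxycycline and 0.73 without it (log2), where 1 member was called higher and 0 lower. Without the drug Thrsp was higher by 0.75 and Pnpla3 by 1.78, which did not pass (adjusted p = 0.0587 and 0.148, limma). The interaction passed for Thrsp (adjusted p = 0.0144, limma) and not for Pnpla3 (0.656). It called 5 of the 24, 3 higher and 2 lower on doxycycline. Dgat2, which makes the final step to triglyceride, rose from 270.0, 238 and 202 FPKM to 403, 387 and 384 FPKM (0.73 ± 0.11 on the log2 scale, adjusted p = 0.0019). Pklr, liver pyruvate kinase, rose from 145, 166 and 173 FPKM to 275, 477 and 426 FPKM. Mlxipl, the glucose-sensing factor ChREBP, was at 77.0, 64.8 and 79.8 FPKM against 100.3, 117 and 104 FPKM, with an adjusted p of 0.0544 without iAMPK replicate 2.

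Fasn, Acaca and Scd1, enzymes of fatty acid synthesis and desaturation, did not pass. Fasn, fatty acid synthase, was at 19.1, 62.3 and 71.7 FPKM against 73.1, 241 and 92.6 FPKM, with its highest value in L-iAMPK replicate 2 (adjusted p = 0.204). Acaca, acetyl-CoA carboxylase 1, was at 3.03 to 6.56 FPKM against 5.30 to 14.6 FPKM (adjusted p = 0.406). Scd1, a desaturase, was at 1181, 2314 and 2234 FPKM against 4481, 6514 and 3887 FPKM. Its groups did not overlap, as in 34.9% of all genes tested, and it did not pass in the 12-library fit (adjusted p = 0.16, limma). Fitted on the 6 libraries alone it had an adjusted p of 0.0444. The list's count of 6 was 3 without iAMPK replicate 2, 4 without iAMPK replicate 1 and 4 without L-iAMPK replicate 2 or 3, and 5 with edgeR. No member fell in these. With the 6 libraries alone 5 rose and 2 fell, and with array weights 7 rose and 2 fell.

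Of 31 genes of fatty acid oxidation and ketogenesis, 12 fell and 1 rose, where 10.3% of all genes tested fell and 4.61% rose. Bdh1, which interconverts the ketone bodies, fell from 120.1, 137 and 127 FPKM to 66.7, 86.5 and 83.1 FPKM (-0.70 ± 0.10 on the log2 scale, adjusted p = 0.00177). Cyp4a14, a fatty acid hydroxylase, fell from 91.1, 153 and 104 FPKM to 21.4, 16.7 and 7.74 FPKM. Several other calls in the list were small, with differences of -0.22 to -0.29 for Etfdh, Echs1, Hadh, Acadl, Eci1 and Etfa. The count of 12 was 5 with median-ratio scaling and with quantile normalization and 3 with edgeR. It was 8, 4 and 8 without iAMPK replicates 1, 2 and 3, and 7, 5 and 7 without L-iAMPK replicates 1, 2 and 3.

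Without doxycycline 6 oxidation genes were higher and none lower in L-iAMPK livers. The interaction called 13 of the 31, each with a lower genotype difference on doxycycline, but 2 with median-ratio scaling and 2 with edgeR. It called 4 without iAMPK HFD replicate 1 or without replicate 2 of iAMPK HFD+dox, 6 without L-iAMPK HFD+dox replicate 2 or 3, and 7 without L-iAMPK HFD replicate 1 or 2. Of 34 oxidative phosphorylation genes, which encode the respiratory chain and ATP synthase, 6 rose and none fell, where 4.61% of all genes rose. Of the 34 differences 27 were positive. The median over this list was 0.12 on doxycycline and 0.11 without it, beside -0.08 and 0.08 over all genes (log2). Without the drug 2 members were called higher and 0 lower, and the interaction called 0 of the 34. Cox5b rose from 31.9, 34.9 and 35.4 FPKM to 44.4, 45.9 and 49.8 FPKM, and Ndufb8 from 138, 137 and 132 FPKM to 189, 188 and 165 FPKM. The 6 became 11 with median-ratio scaling and 19 with quantile normalization. They became 3 without iAMPK replicate 2 or 3 and without L-iAMPK replicate 1 or 3.

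Of 25 genes of cholesterol synthesis and uptake, 3 fell on doxycycline, near the 10.3% of all genes that fell, 1 rose and 21 did not pass. With array weights 16 fell. Without doxycycline 4 were higher and none lower. The median difference over the list was -0.50 on doxycycline and 0.85 without it (log2). The interaction called 14 of the 25, all 14 lower on doxycycline, 9 with median-ratio scaling, 8 with quantile normalization and 5 with edgeR. It called 22 without L-iAMPK HFD replicate 3, 8 without iAMPK HFD replicate 2 and 7 without L-iAMPK HFD+dox replicate 2. Of the libraries without doxycycline, leaving out replicate 1 of iAMPK HFD or replicates 1 or 2 of L-iAMPK HFD gave 5. So did leaving out replicates 2 or 3 of iAMPK HFD+dox and replicates 1 or 3 of L-iAMPK HFD+dox. Mvk, mevalonate kinase, was at 10.3, 11.5 and 10.1 FPKM against 5.53, 4.92 and 5.26 FPKM on doxycycline, and at 7.43, 8.69 and 8.11 FPKM against 18.1, 18.1 and 11.3 FPKM without it. The call of Mvk without doxycycline was lost without iAMPK HFD replicate 1 or without L-iAMPK HFD replicate 1 or 2 (adjusted p = 0.0692 to 0.0753), while its call on doxycycline held in all 17 alternatives. Ebp, a sterol isomerase, fell from 113, 107.0 and 108.0 FPKM to 82.3, 74.8 and 73.8 FPKM. Leaving out iAMPK replicate 2 or L-iAMPK replicate 2 gave 2 falls in place of 3, and the 6 libraries alone gave 10.

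In carbohydrate metabolism, 3 of 20 genes of gluconeogenesis and glycogen rose, where 4.61% of all genes rose, and 1 fell. With quantile normalization 6 rose, with array weights 5 rose and 5 fell, and without iAMPK replicate 1 or 3 there were 2 falls. Ppp1r3b, the liver subunit that brings protein phosphatase 1 to glycogen (chromosome 8, 35375741 to 35388137), rose from 32.7, 46.4 and 35.2 FPKM to 153.5, 142 and 129.7 FPKM, by 1.89 ± 0.14 on the log2 scale (adjusted p = 2.38e-05). Pygl, liver glycogen phosphorylase, rose from 191, 202 and 219 FPKM to 273, 292 and 265 FPKM, and Fbp1, fructose bisphosphatase, from 684, 766 and 729.7 FPKM to 991, 1156 and 1171 FPKM. Ugp2, which makes UDP-glucose for glycogen, fell from 193, 179.6 and 167 FPKM to 98.4, 120.2 and 119.9 FPKM. G6pc, glucose 6-phosphatase, was at 68.1, 140.0 and 193 FPKM against 248, 277 and 269 FPKM and did not pass (adjusted p = 0.0722; 0.043 without iAMPK replicate 3). Ppp1r3b, Ugp2, Fbp1 and Pygl kept their calls in all 17 alternatives.

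More detoxification genes fell than rose. Of 23 xenobiotic metabolism genes 7 fell and 2 rose, where 10.3% of all genes tested fell and 4.61% rose. The rises were Cyp2c29 and Ces1d. Nr1i3, the nuclear receptor CAR, fell from 139, 139 and 113 FPKM to 45.3, 51.6 and 52.4 FPKM (-1.38 ± 0.16 on the log2 scale, adjusted p = 0.000546). Cyp2c37 fell from 66.6, 73.7 and 77.5 FPKM to 22.8, 24.2 and 24.7 FPKM, while its family member Cyp2c29 rose. The median over the xenobiotic list was -0.41 on doxycycline and -0.40 without it (log2). Without the drug 1 member was called higher and 1 lower. The interaction called 6 of the 23, 2 higher and 4 lower on doxycycline. Of 20 targets of NRF2, the factor that answers oxidative stress, 7 fell and none rose, against the same 10.3% and 4.61%. Of the 7 falls, 4 were glutathione transferases. Gstm1 fell from 259.8, 407 and 423 FPKM to 171, 163 and 183 FPKM, and Gsta2 from 5.16, 10.6 and 9.58 FPKM to 1.99, 1.34 and 1.66 FPKM. The 7 became 11 without iAMPK replicate 1. The genes of the Cyp2c, Cyp2a, Cyp3a, Ces1, Gsta, Gstm, Saa and Mup families have near-identical neighbours, and the sources used here do not say how reads shared among them were counted.

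Of 19 genes of bile acid synthesis and transport, 5 fell and 1 rose, where 10.3% of all genes tested fell and 4.61% rose. Slc10a1, which takes bile acids up from blood, rose from 460.0, 370.3 and 318 FPKM to 658, 698 and 646 FPKM (0.82 ± 0.13 on the log2 scale, adjusted p = 0.00233). Besides Abcc3 the falls were Abcb4, a canalicular phospholipid transporter, and Hsd3b7, Cyp8b1 and Slc27a5 of synthesis. The call of Slc27a5 was lost without any 1 of the 6 libraries (adjusted p = 0.0637 to 0.0976). Cyp8b1, the sterol 12-hydroxylase, was at 242, 221 and 229 FPKM against 177, 114 and 99.9 FPKM. Cyp7a1, the rate-limiting enzyme of bile acid synthesis, was at 27.4, 32.1 and 18.0 FPKM against 68.9, 19.97 and 52.0 FPKM and did not pass (adjusted p = 0.461). Without doxycycline 5 genes of the list were lower in L-iAMPK livers and 0 higher, with a median of -0.34 against -0.01 on doxycycline (log2). Cyp8b1 and Hsd3b7 were lower there too, with differences of -0.68 and -0.58 on the log2 scale. Slc10a1 was lower without the drug, with a difference of -0.50, and higher on it, and the interaction passed (1.32 on the log2 scale, adjusted p = 0.00311). Each of these 3 calls without the drug was lost in several alternatives, at adjusted p of up to 0.169 for Cyp8b1, 0.0919 for Hsd3b7 and 0.17 for Slc10a1.

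Among proliferation genes 6 of 17 fell and none rose, where 10.3% of all genes tested fell and 4.61% rose. Ccnd1, cyclin D1, fell from 6.12, 14.2 and 14.6 FPKM to 1.99, 2.29 and 2.05 FPKM (-2.12 ± 0.33 on the log2 scale, adjusted p = 0.0034). Mcm3, of the replicative helicase, fell from 1.95, 2.405 and 2.59 FPKM to 0.727, 1.04 and 1.19 FPKM. The count of 6 was 8, 2 and 2 without iAMPK replicates 1, 2 and 3, and 2, 4 and 3 without L-iAMPK replicates 1, 2 and 3. Leaving out L-iAMPK replicate 3 also gave 1 rise. A filter at 2 FPKM left 5 members, of which 2 fell. The summed level of the list overlapped between the groups, at 26.75, 48.47 and 54.15 FPKM in iAMPK livers and 62.5, 29.23 and 26.08 FPKM in L-iAMPK livers. Of 15 immediate-early genes 3 fell, beside the 10.3% of all genes. They were led by Klf6, a transcription factor, from 4.06, 5.96 and 7.503 FPKM to 1.89, 2.22 and 1.96 FPKM.

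Other lists held fewer stable calls, to be set beside the 10.3% of all genes tested that fell and the 4.61% that rose. Lipid droplet genes had 3 falls and 1 rise of 20, lysosome and autophagy genes 4 and 4 of 29, and integrated stress response genes 2 falls and 1 rise of 21. Endoplasmic reticulum stress genes had 3 falls of 20, with none left under median-ratio scaling or edgeR. Single libraries moved these counts: the 4 lysosomal rises became 1, 0 and 0 without iAMPK replicates 1, 2 and 3 and 0, 2 and 0 without L-iAMPK replicates 1, 2 and 3, and the 4 falls became 1 without iAMPK replicate 3 and 2 without L-iAMPK replicate 1. The 3 droplet falls became 6 without iAMPK replicate 1 and 1 without iAMPK replicate 2, and the 3 endoplasmic reticulum falls became 1 or 0 without any 1 library. The 2 stress response falls became 4 without iAMPK replicate 1, and 1 without iAMPK replicate 2 or 3 or L-iAMPK replicate 1 or 2. Regulators of mitochondrial content had 1 fall of 16 and the growth hormone axis 1 of 13. None of 19 circadian clock genes was called (limma; 2 higher and 4 lower at an unadjusted p under 0.05, and edgeR called 0). Median-ratio scaling and quantile normalization each called 2 of them higher, leaving out iAMPK replicate 3 called 1 higher and 3 lower, and array weights 2 higher and 5 lower. Lipe, hormone-sensitive lipase, was the member of the droplet list with the most stable fall, from 11.03, 9.89 and 7.36 FPKM to 6.08, 4.96 and 5.21 FPKM. Erythroid markers had 1 rise of 6, adipose markers 1 fall of 2 (Cfd), and sex chromosome genes 1 rise of 4 (Ddx3y). Xist, a further gene of the sex chromosome list, was at most 0.058 FPKM in every library of the series and was not tested. The summed level of that list was 46.8 to 48.98 FPKM in iAMPK and 48.61 to 52.89 FPKM in L-iAMPK livers on doxycycline.

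The same genotypes without doxycycline, which share no library with the comparison above, differed in 544 genes, or 4.31% of the genes tested, 384 (3.04%) higher and 160 (1.27%) lower in L-iAMPK livers. This split also turned with the scaling, with 177 higher and 286 lower after median-ratio scaling, 291 and 321 after quantile normalization, and 151 and 207 with edgeR. The count rested heavily on single libraries. It was 57, 288 and 223 without iAMPK HFD replicates 1, 2 and 3, and 38, 49 and 1444 without L-iAMPK HFD replicates 1, 2 and 3. Of the 544, 170 were also called on doxycycline, which is 31.2% of the calls without the drug and 9.03% of those with it. Among the 170, 52 were higher and 72 lower in both comparisons, and 46 had opposite signs.

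The 6 most significant genes without doxycycline were Trpm4, Car3, Gpc1, Slc3a1, Nenf and Pfkl, and of them 4 differed on doxycycline too. The call of Nenf on doxycycline (adjusted p = 0.0332) was lost in 8 alternatives, among them leaving out any library but iAMPK replicate 3 (0.0575 to 0.109). Car3, a carbonic anhydrase abundant in liver and fat, was at 1969.9, 1933 and 1494 FPKM in iAMPK and 435, 553 and 577 FPKM in L-iAMPK livers without the drug. On it the values were 1944, 1407 and 1377 FPKM against 588, 526 and 734 FPKM. Gpc1, the proteoglycan glypican 1, was at 17.9, 24.0 and 16.2 FPKM against 6.37, 7.29 and 5.97 FPKM without the drug and at 16.8, 22.3 and 17.4 FPKM against 4.78, 3.83 and 5.04 FPKM with it. Slc3a1, part of a cystine transporter, was at 26.7, 23.0 and 28.5 FPKM against 9.73, 10.8 and 6.35 FPKM without and at 31.9, 29.1 and 26.1 FPKM against 8.80, 8.41 and 8.59 FPKM with it. For these 3 genes the L-iAMPK livers lay below the iAMPK livers in both diets, and the interaction did not pass (adjusted p = 0.259, 0.182 and 0.62).

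Mup20, a male-biased major urinary protein, was among the largest falls on doxycycline, at 905, 507 and 460.3 FPKM against 136, 35.5 and 71.3 FPKM. Without the drug it was as far apart, at 1383, 765 and 357 FPKM against 85.8, 69.6 and 121 FPKM, a difference of -3.00 beside -3.08 on doxycycline (log2). The call without the drug was lost without iAMPK HFD replicate 1 or 2 or without L-iAMPK HFD replicate 1 or 2 (adjusted p = 0.0539 to 0.0964). Of 21 male-biased liver genes 4 fell and 1 rose on doxycycline, against 7 that fell and none that rose without it. Over all genes tested 10.3% fell and 4.61% rose on doxycycline, and 1.27% fell and 3.04% rose without it. Of 14 tested female-biased genes 3 rose and 1 fell on doxycycline, against 3 that rose and none that fell without it. The median over the female-biased list was 0.23 on doxycycline and 1.16 without it (log2). Over the male-biased list it was -0.70 on doxycycline and -2.52 without it. The 4 male-biased falls on doxycycline became 1, 2 and 1 without iAMPK replicates 1, 2 and 3, and 2, 1 and 1 without L-iAMPK replicates 1, 2 and 3.

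**Figure D4:**
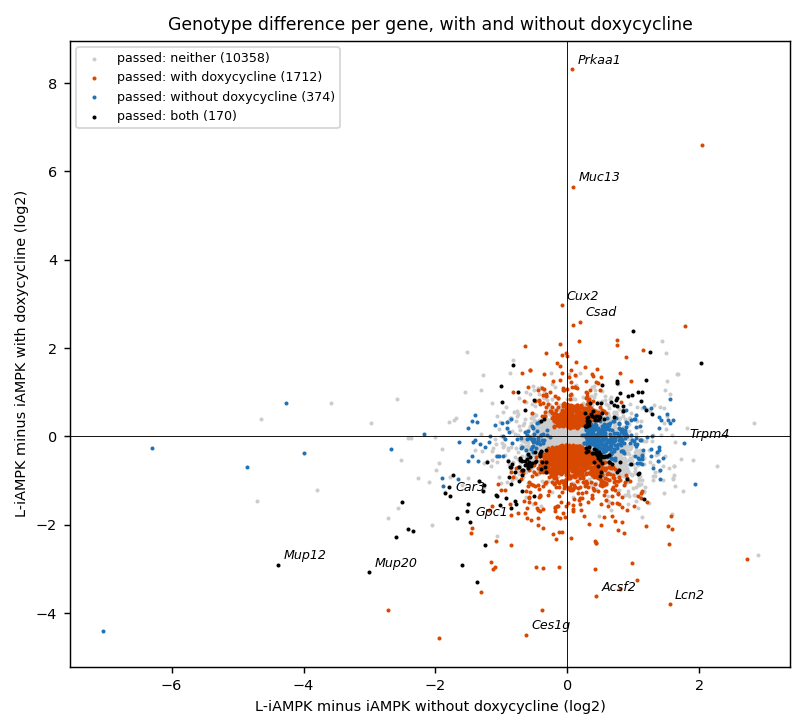
Each point is a gene, with the L-iAMPK minus iAMPK difference without doxycycline on the x axis and with doxycycline on the y axis (both log2); colours give the comparison in which it passed. Prkaa1, Muc13, Cux2 and Csad lie high and near 0 on the x axis, and Mup20 is low on both.

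The interaction called 1663 genes, or 13.2%, of which 254 (2.01%) had a higher and 1409 (11.2%) a lower genotype difference on doxycycline than without it. The direction of these calls as a whole turned with the scaling, as the median gene stood at -0.15 with FPKM and at 0.04 after median-ratio scaling (log2). That scaling gave 850 higher and 671 lower, quantile normalization 747 and 625, and edgeR 334 and 402. Of the 1882 genes called on doxycycline, 883 were among them. Muc13, Csad and Ppp1r3b did not pass without the drug (adjusted p = 0.752, 0.651 and 0.948). There Csad was at 41.8, 50.3 and 30.2 FPKM in iAMPK against 58.1, 48.6 and 33.4 FPKM in L-iAMPK livers, and Ppp1r3b was at 54.8, 46.2 and 62.8 FPKM against 52.8, 51.9 and 55.8 FPKM. Their interactions were 5.57, 2.41 and 1.91 on the log2 scale, with adjusted p of 3.44e-08, 0.00429 and 0.000674 (limma). The count of 1663 was 2803, 527 and 783 without iAMPK HFD+dox replicates 1, 2 and 3, and 800, 976 and 844 without those of L-iAMPK HFD+dox. It was 633 without iAMPK HFD replicate 1, and 561 and 589 without L-iAMPK HFD replicates 1 and 2.

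**Figure D5:**
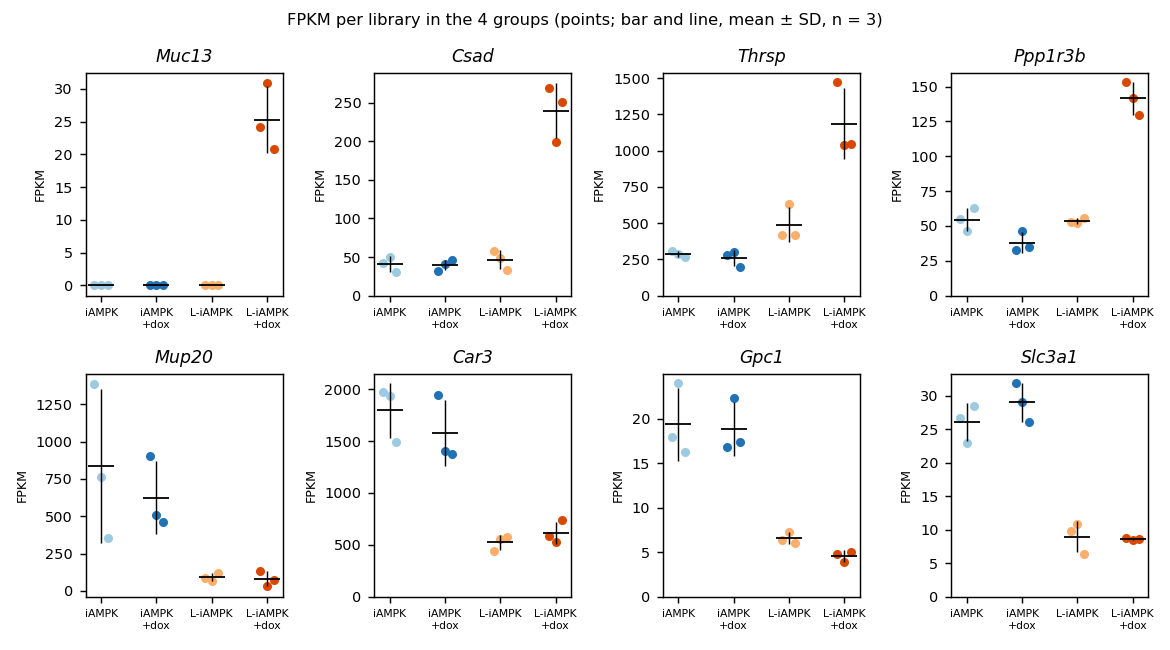
FPKM of 8 genes in each of the 12 libraries, by group, with the mean ± SD of 3. Muc13, Csad and Ppp1r3b are high in the L-iAMPK group on doxycycline alone, whereas Mup20, Car3, Gpc1 and Slc3a1 are low in both L-iAMPK groups.

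Among the most abundant transcripts of the liver several rose. Ahsg, the secreted protein fetuin A, rose from 4209.6, 3544 and 3403 FPKM to 6221, 6060.1 and 6152 FPKM (0.73 ± 0.11 on the log2 scale, adjusted p = 0.00227). Apoc3, an inhibitor of lipoprotein lipase, rose from 3009.9, 3029 and 2903 FPKM to 4749, 5023 and 4917 FPKM. In both genes the lowest L-iAMPK liver was above the highest iAMPK liver, and 34.9% of all genes tested had no overlap, in either direction. Of the other called genes at this level, Fabp1 lost its call without iAMPK or L-iAMPK replicate 2 or 3 (adjusted p = 0.054 to 0.0694). Apoa1 lost it without any library but L-iAMPK replicate 1 (0.0677 to 0.153), Apoa2 without any but iAMPK replicate 1 (0.0533 to 0.0907), and Trf without any but iAMPK replicate 3 (0.0723 to 0.0987). Tdo2, tryptophan dioxygenase, another hepatocyte gene, fell from 867, 805 and 724 FPKM to 461, 391 and 425 FPKM.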

How the data were processed

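RNA was isolated from flash-frozen liver and libraries were made with a stranded mRNA kit, per the labels' protocols. The submitters' processing notes name FastQC, STAR 2.4.0k, HOMER, edgeR 3.6.8 and the mm10 build, without parameters. The authors deposited FPKM values per gene and a signal table of tag counts scaled to a common total, of which 24453 genes were read. They also deposited a table of their own comparisons, with log2 fold changes and adjusted p-values.

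Each of the 12 libraries was assigned by its label, 3 per group. From the deposited FPKM, log2(FPKM + 0.5) was fitted in limma 3.58.1 (R 4.3.3) with 4 group means, a trend and a robust variance step, for the 12614 genes with at least 0.5 FPKM in at least 3 libraries. P-values were adjusted by Benjamini-Hochberg over all genes tested, and 0.05 was the threshold. The scaled signal came back to whole reads within 0.02 for 100.0% of values in every library; edgeR 4.0.16 ran on 11 libraries and called 1083 genes, without iAMPK HFD+dox replicate 2, since a read there equals 0.995 scaled tags and a step so near 1 cannot be checked. Values of edgeR therefore rest on 2 iAMPK libraries on doxycycline. Depth limits the lowest genes. On simulated data for the comparison on doxycycline (12614 genes), 44.8%, 92.5% and 98.5% of changes of 0.5, 1 and 2 (log2) were recovered, with 8 false calls.

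Members and lists were chosen with earlier results of these data known. Genes were named by a rule: the AMPK list, the 14 largest rises and 14 largest falls among called genes whose 2 groups did not overlap and whose mean reached 1 FPKM, the 8 most abundant called genes, the 6 most significant without doxycycline, up to 5 called members per list, and called genes within 500 kb of Col1a1. Acaca, Fasn, Scd1, G6pc, Cyp7a1, Glul, Fga, Fgg and the 6 oxidation genes with small differences were named for their role or to complete a list, after their values were seen. Alternatives covered scaling, pseudocount, filter, weights, replicate block, variance steps, the libraries fitted, each library left out, and edgeR. Some members counted in lists are not reported here by name.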

Additional observations from a re-analysis of the deposited data

Results flagged for a closer look

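Of the 28 largest rises and falls on doxycycline, 20 had a genotype difference that differed between the diets with and without the drug, by the interaction term in limma at an adjusted p under 0.05. These genes were chosen for a large difference on doxycycline, which is a term of the interaction. Over all genes tested 13.2% had such an interaction, and of the 1882 genes called on doxycycline 883, or 46.9%, had one. Each value is the difference with doxycycline minus the difference without it, on the log2 scale. Among the rises it was 8.24 for Prkaa1, 5.57 for Muc13, 4.56 for Cyp2a4, 3.06 for Cux2, 2.68 for Cyp2c29 and 2.44 for Cabp2. It was 2.41 for Csad, 2.21 for Cyp2c53-ps, 1.99 for Slc34a2, 1.44 for Thrsp and 1.39 for Gstm5. Among the falls it was -5.34 for Lcn2, -4.30 for Ubd, -4.25 for Saa2, -4.05 for Acsf2, -3.87 for Ces1g and -3.55 for Abcc3. It was -3.41 for Saa1, -2.84 for Adora1 and -1.92 for Ces1b.

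Lcn2, Saa1, Saa2 and Ubd had positive differences without the drug that did not pass the test (0.41 to 1.55, adjusted p = 0.228 to 0.65), and fell on it. Gstm5 and Ces1b already differed without the drug, by 0.99 and -1.38, and differed more with it. Ces1b lost the call without doxycycline when iAMPK HFD replicate 1 or L-iAMPK HFD replicate 1 or 2 was left out (adjusted p = 0.056 to 0.0705).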

How the results depend on the processing

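Of 140 named genes called on doxycycline, 79 kept the call in all 17 alternatives and 0 changed sign; of the 28 largest changes 23 kept it. The counts of called genes moved more. With array weights 1417 genes were higher and 3402 lower on doxycycline, 3078 differed without it and 4673 interactions were called; the cause was not tested. A further requirement of a log2 change of at least 1 left 67 higher, 230 lower, 109 without doxycycline and 558 interactions, fewer by construction. Genes higher numbered 1129 with median-ratio scaling and 1232 with quantile normalization. With edgeR, which had 11 libraries, 552 genes were lower, 358 differed without doxycycline and 736 interactions were called. Fitting only the compared libraries left 300 genes without doxycycline. With single libraries left out, genes higher ranged from 289 to 483, genes lower from 610 to 1959, calls without doxycycline from 38 to 1444, and interactions from 527 to 2803. The correlations of deviations of same-numbered libraries on doxycycline were 0.285, 0.076 and -0.0325, and those of unlike-numbered libraries were -0.304 to 0.288. So few values, from 3 libraries a group, cannot decide whether the replicate numbers pair the samples. With the replicate number as a block, 484 genes were higher, 1142 lower, 404 differed without doxycycline and 1431 interactions were called. With 3 libraries a group, changes under 0.5 (log2) are the ones most often missed.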
